A study of Mus musculus with 7 samples.

Results

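The expression of 10 genes of the Nrf1 and Nrf2 stress response was followed in the left ventricle of mice with a missense variant in titin. They were chosen by name and comprise the transcription factor genes Nfe2l1 (Nrf1) and Nfe2l2 (Nrf2), the regulators Ddi2 and Keap1, and the Nrf2 target genes Nqo1, Hmox1, Gclc, Gclm, Txnrd1 and Srxn1. All 10 were found among the 20927 genes of the count table, and all 10 were tested, as part of the 13894 genes that reached 10 counts in 3 libraries or more.

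Nrf1 and Nrf2 are related transcription factors that bind antioxidant response elements together with small Maf proteins. Nrf1 is made at the endoplasmic reticulum and is degraded by the proteasome. When proteasome activity falls short, it is cleaved by the protease Ddi2 and switches on genes for proteasome subunits. Nrf2 is kept low by Keap1, which passes it to the proteasome, and is released under oxidative or electrophilic stress to switch on genes for glutathione synthesis, thioredoxin reduction, quinone detoxification and haem breakdown. Both factors are controlled largely at the level of the protein, which RNA sequencing does not measure.

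RNA was sequenced from the left ventricles of 3 wild-type (WT) mice, numbered 1, 3 and 4, and of 4 mice homozygous for the titin variant A178D, numbered 1 to 4, with 1 library for each heart. The variant lies in the part of titin that binds telethonin at the Z-disc. It was introduced by CRISPR/Cas9 into JM8F6 embryonic stem cells of the C57BL/6N strain, and the mice were backcrossed to C57BL/6J. The sources used here give neither the age nor the sex of these 7 mice. The libraries held between 33080675 counts (A178D replicate 4) and 54245530 counts (WT replicate 3). The comparison of A178D with WT asks which genes differ in the hearts with the variant.

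The labels and the tissue were checked first. Acta1, the skeletal muscle actin of the foetal gene programme, rose from 108 ± 64.6 CPM (SD, n = 3) in WT to 671 ± 131 CPM (SD, n = 4) in A178D, with a log2 fold change of 2.63 ± 0.29 (SE) and an adjusted p of 0.000651 (edgeR). CPM are counts scaled to a common library size by the TMM method. Nppa, which encodes atrial natriuretic peptide, had a log2 fold change of 1.31 ± 0.24 (adjusted p = 0.0146, edgeR). Both genes were higher in all 4 A178D hearts than in all 3 WT hearts, but Nppa missed the threshold when WT replicate 3 (adjusted p = 0.086), WT replicate 4 (0.0598) or A178D replicate 1 (0.0555) was left out. Titin itself (Ttn) overlapped between the genotypes, with a log2 fold change of -0.27 ± 0.12 and an adjusted p of 0.287. It was lowest in A178D replicate 4 (4087 CPM), and without that library its log2 fold change was -0.15. The 10 cardiomyocyte markers summed to between 119743 and 128567 CPM, while the 3 atrial markers summed to at most 4.21 CPM.

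No gene of the 10 passed an adjusted p under 0.05 in the main edgeR fit, where 2.35% of all tested genes passed (327 genes). At an unadjusted p under 0.05, edgeR gave 2 of 10, Nqo1 and Srxn1, beside 16.7% of all tested genes. DESeq2 called 1 of 10, Srxn1, where it called 5.06% of the 13153 genes to which it gave an adjusted p, and limma-voom called 0 of 10. The hearts of the genotypes did not overlap for 2 of the 10, beside 16.1% of all tested genes. These were Srxn1, higher in A178D, and Nfe2l2, lower in A178D. The median log2 fold change of the 10 was 0.09, against 0.002 over all tested genes, and 6 of 10 values lay above 0 (50.5% of all tested genes). A p above the threshold does not show that a gene was the same in both genotypes.

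Levels can be compared between genes only per transcript length. Per kilobase of exon and averaged over the 7 hearts, Nfe2l1 was the most abundant of the 10 at 169 CPM, above 97.6% of the tested genes. It was followed by Nqo1 at 66.9, Nfe2l2 at 35.1, Txnrd1 at 17.6, Keap1 at 14.6 and Srxn1 at 11.9 CPM per kilobase. Hmox1 (7.22), Gclc (5.10), Gclm (2.77) and Ddi2 (0.911 CPM per kilobase) were the least abundant. Neighbours in this order had separate ranges over the 7 hearts, apart from Txnrd1 with Keap1 and Keap1 with Srxn1, which overlapped. The messenger RNA of Nrf1 was therefore more abundant per kilobase than that of Nrf2 in every heart, with 159 CPM per kilobase as the lowest value of Nfe2l1 and 38.0 as the highest of Nfe2l2.

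Nfe2l1 (ENSMUSG00000038615, chr11:96817414-96829968 on the minus strand of GRCm38) was measured at 894, 772 and 808 CPM in WT replicates 1, 3 and 4, and at 827, 844, 840 and 778 CPM in A178D replicates 1 to 4. Both the highest and the lowest heart were WT hearts, and the genotypes overlapped throughout. Means were 825 ± 62.7 CPM (SD, n = 3) in WT and 822 ± 30.4 CPM (SD, n = 4) in A178D, and the log2 fold change was -0.004 ± 0.07 (adjusted p = 0.984, edgeR). Its sign was not determined: the log2 fold change was 0.06 without WT replicate 1, 0.02 without A178D replicate 4 and 0.02 with offsets for transcript length and GC content.

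Nfe2l2 (ENSMUSG00000015839, chr2:75675513-75704641 on the minus strand) was measured at 94.0, 88.9 and 92.5 CPM in the WT hearts and at 78.0, 80.8, 86.3 and 87.2 CPM in A178D replicates 1 to 4. All 4 A178D hearts lay below all 3 WT hearts, and the gap between the nearest hearts, A178D replicate 4 and WT replicate 3, was small beside the spread within A178D. The log2 fold change was -0.14 ± 0.07 with an adjusted p of 0.313 (edgeR), so that the difference did not pass the test. Of all tested genes, 8.52% were lower in every A178D heart. Ttn, the edited gene, lies on the same chromosome as Nfe2l2. The strain of the sequence around it in these mice is not given in the sources used here. The variant and linked sequence of the stem cell strain cannot be told apart in this design.

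Ddi2, the aspartic protease that activates Nrf1, had the fewest counts per length of the 10. It was measured at 10.7, 9.45 and 9.06 CPM in WT and at 8.67, 9.73, 8.76 and 4.54 CPM in A178D replicates 1 to 4. A178D replicate 4 lay far below the other 6 hearts, which overlapped. The log2 fold change of -0.29 ± 0.19 (adjusted p = 0.494, edgeR) was -0.11 without that library (adjusted p = 0.695). With offsets for transcript length and GC content it was -0.20 (adjusted p = 0.524), and with the replicate block -0.45 (adjusted p = 0.23). Ddi2 is uncertain for another reason: Rsc1a1, which is annotated on the same strand within Ddi2, was listed with 0 counts in all 7 libraries, and how counts were assigned between overlapping genes is not given in the sources used here.

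Keap1, the sensor that holds Nrf2 back, was measured at 64.9, 60.5 and 64.6 CPM in WT and at 59.8, 67.0, 70.5 and 73.6 CPM in A178D. A178D replicate 1 was the lowest of the 7 hearts, and the other 3 A178D hearts were above all WT hearts. Keap1 had a log2 fold change of 0.10 ± 0.08 (adjusted p = 0.581, edgeR), which was 0.06 without A178D replicate 4 and 0.15 without A178D replicate 1. Gm16754 is annotated on the opposite strand of Keap1, and whether the counts were made by strand is not given in the sources used here.

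Srxn1, which encodes sulfiredoxin, the enzyme that repairs over-oxidised peroxiredoxins, stood closest to the threshold. Srxn1 (ENSMUSG00000032802, chr2:152105516-152111376 on the plus strand) was measured at 30.9, 28.6 and 28.8 CPM in WT and at 35.5, 34.5, 38.7 and 38.0 CPM in A178D. Every A178D heart was above every WT heart, as for 7.61% of all tested genes, and no single heart stood apart. Means were 29.4 ± 1.29 CPM (SD, n = 3) and 36.7 ± 2.00 CPM (SD, n = 4), which is 24.6% higher in A178D. The log2 fold change was 0.32 ± 0.08 with an unadjusted p of 0.00134 and an adjusted p of 0.0543 in edgeR, and Srxn1 ranked 342 by p among the 13894 tested genes. The adjusted p was 0.01 in DESeq2 and 0.036 with offsets for transcript length and GC content, and it ranged from 0.01 to 0.216 over all settings. Without WT replicate 3, where it was 0.216, the log2 fold change was still 0.29.

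Nqo1, a quinone reductase and the most abundant of the 6 targets per kilobase, was measured at 94.2, 89.4 and 105 CPM in WT and at 115, 117, 103 and 103 CPM in A178D. WT replicate 4 lay above A178D replicates 3 and 4, so that the genotypes overlapped. The log2 fold change was 0.19 ± 0.08, with an unadjusted p of 0.0293 and an adjusted p of 0.242 (edgeR). It was 0.12 with offsets for transcript length and GC content (adjusted p = 0.412).

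Txnrd1, the cytosolic thioredoxin reductase, was measured at 73.8, 68.0 and 63.6 CPM in WT and at 77.2, 73.0, 74.1 and 72.3 CPM in A178D. WT replicate 1 lay within the A178D range and the other WT hearts below it. With a log2 fold change of 0.12 ± 0.07, Txnrd1 did not pass the test (adjusted p = 0.459, edgeR), and the value was 0.07 without WT replicate 4 and 0.18 without WT replicate 1. Eid3 is annotated within Txnrd1 on the same strand and had at most 8 counts in any library. Txnrd1 and Gclm also overlap other annotated transcripts that the count table does not list, and their values are uncertain to that extent.

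Gclc and Gclm encode the catalytic and the modifier subunit of glutamate-cysteine ligase, the first enzyme of glutathione synthesis. Gclc ranged from 17.1 to 18.3 CPM in WT and from 15.5 to 18.7 CPM in A178D, with a log2 fold change of -0.04 ± 0.09 (adjusted p = 0.86, edgeR). Gclm ranged from 12.8 to 16.8 CPM in WT and from 15.1 to 16.9 CPM in A178D, with a log2 fold change of 0.10 ± 0.11 (adjusted p = 0.697, edgeR). The genotypes overlapped for both subunits. The lowest value of Gclm was that of WT replicate 1, and without this heart its log2 fold change was -0.002. With the offsets it was 0.17 for Gclm.

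Hmox1, the inducible haem oxygenase, was measured at 8.98, 11.8 and 12.3 CPM in WT and at 10.3, 12.3, 12.3 and 11.4 CPM in A178D. Here too WT replicate 1 was the lowest heart and the genotypes overlapped. The log2 fold change of 0.08 ± 0.12 (adjusted p = 0.81, edgeR) was -0.05 without WT replicate 1 and 0.007 with the length and GC offsets (adjusted p = 0.985). Hmox1 is also a gene of macrophages. The 14 macrophage markers were likewise lowest in WT replicate 1, at a summed 260 CPM, against 302 to 344 CPM in the other 6 hearts. C1qa was the most abundant marker per kilobase and none was at 0 in all hearts. Their part in the Hmox1 values was not tested. In bulk tissue, fewer cells of a type and less RNA per cell cannot be told apart.

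**Figure D1:**
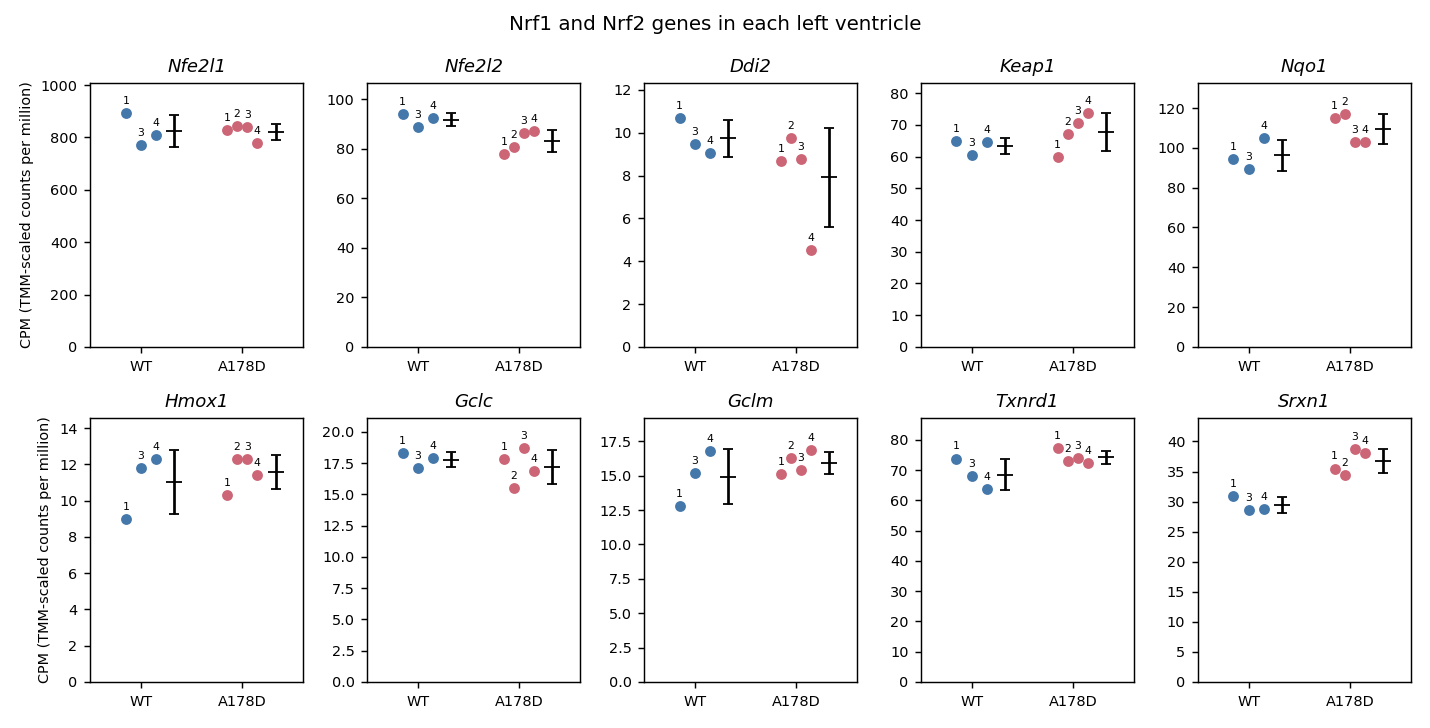
CPM (counts scaled to a common library size by TMM, linear axis from 0) of the 10 genes in each left ventricle. Points are single hearts with their replicate number, WT in blue and A178D in red, and the black marks give the mean and SD of each genotype (n = 3 and n = 4). The 4 A178D hearts sit above the WT hearts for Srxn1 (34.5 to 38.7 against 28.6 to 30.9 CPM) and below them for Nfe2l2 (78.0 to 87.2 against 88.9 to 94.0 CPM), and A178D replicate 4 is low for Ddi2 (4.54 CPM).

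The genes whose profile over the 7 hearts was most like that of each factor were sought among the 8575 genes that averaged 500 counts or more. For Nfe2l1 they were Fem1c (Pearson r = 0.979 over 7 hearts), Gpld1 (0.979), Ago4 (0.977), Icmt (0.97) and 2410131K14Rik (0.966). For Nfe2l2 they were Fam174b (Pearson r = 0.986 over 7 hearts), Zfp276 (0.978), Ggnbp2 (0.971), Ehmt1 (0.966) and Otud1 (0.966). Ddi2 averaged fewer counts and was not compared, and none of the other 8 genes studied here was among the 5 nearest to either factor. These values describe 7 hearts of 2 genotypes and were picked as the highest of many.

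Promoter sequences are shown for the genes of the 10 that carry the core of the antioxidant response element. The core was searched as TGACNNNGC on both strands, in RefSeq promoters of GRCm38.p6 that run from 250 bases before to 50 bases after each gene start. It was present in 12.4% of 32851 promoters and, counting any promoter of a gene, in 14.0% of 27025 genes. Of the 10 genes, 8 had an entry, and 4 of these 8 had a match: Nfe2l2, Gclm, Txnrd1 (in 1 of its 3 promoters) and Srxn1. Nfe2l1, Ddi2, Keap1 and Nqo1 had none in these windows, and Hmox1 and Gclc had no entry. The windows below are 29 bases long and written 5′ to 3′ along the strand of the gene, with the match in capitals. In Nfe2l2 the forward motif is read, and in the other 3 genes its reverse complement GCNNNGTCA. They lie at chr2:75704885-75704913 (Nfe2l2, minus strand), chr3:122245413-122245441 (Gclm, plus strand), chr10:82859104-82859132 (Txnrd1, plus strand) and chr2:152105542-152105570 (Srxn1, plus strand). The Srxn1 match begins at position 29, counted from 1 at the start in RefSeq, which lies a few bases inside the gene as printed above, and those of Nfe2l2 and Gclm lie before the gene start. The Txnrd1 match lies before the start of that promoter's transcript, which is inside the annotated gene (chr10:82833951-82897712).
Nfe2l2: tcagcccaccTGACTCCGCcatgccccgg
Gclm: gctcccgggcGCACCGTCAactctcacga
Txnrd1: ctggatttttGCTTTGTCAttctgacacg
Srxn1: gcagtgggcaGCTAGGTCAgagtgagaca
A match of these letters is a description of the sequence and does not show that a factor is bound there. Among these 4 genes the log2 fold changes were -0.14, 0.10, 0.12 and 0.32 in the order printed, and none passed the test in the main edgeR fit.

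Beyond the 10, a further 137 genes were listed by role, and 132 of them were tested. Of these 132, edgeR called 2 higher in A178D (1.04% of all tested genes were called higher) and 0 lower (1.31% of all tested genes). At an unadjusted p under 0.05, 22 were higher and 8 lower, beside 7.93 and 8.81% of all tested genes. DESeq2 called 7 higher and 3 lower. Over all genes it called 290 higher and 375 lower, together 5.06% of the 13153 genes with an adjusted p. Limma-voom called the same 2 genes higher as edgeR, and 0 lower. The 2 genes called by edgeR were Gsto1 and Prdx6, described with their lists.

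The list of Nrf1 processing holds the factors that extract, deglycosylate, degrade or modify Nrf1. Of its 12 genes 11 were tested, and edgeR called 0 in either direction. It gave 0 higher and 2 lower at an unadjusted p under 0.05 (7.93 and 8.81% of all tested genes). DESeq2 also called none of them. The median log2 fold change was -0.05, and it ranged from -0.079 to 0.012 over all alternatives. Ogt, the O-GlcNAc transferase, had -0.20 ± 0.09 (adjusted p = 0.272, edgeR). Syvn1, a ubiquitin ligase of the endoplasmic reticulum, had -0.18 ± 0.08 (adjusted p = 0.251) and was lower in all 4 A178D hearts. Ngly1, the cytosolic N-glycanase, had 0.11 ± 0.10 (adjusted p = 0.614). Vcp, the ATPase that pulls Nrf1 out of the membrane and the most abundant gene of the list per kilobase, had 0.10 ± 0.06 (adjusted p = 0.47) and was higher in all 4 A178D hearts.

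Proteasome genes are the targets through which Nrf1 restores proteolysis. All 40 listed genes for subunits and assembly factors were tested, and all 40 log2 fold changes were above 0 (50.5% of all tested genes), between 0.02 and 0.29, with a median of 0.14. EdgeR called 0 of 40 in either direction. It gave 8 higher and 0 lower at an unadjusted p under 0.05 (7.93 and 8.81% of all tested genes). DESeq2 called 2 higher, Pomp and Psmd6 (5.06% of all genes with an adjusted p, both directions together). In 13 of 40 every A178D heart was above every WT heart, beside 7.61% of all tested genes. Pomp, the proteasome maturation protein, was measured at 88.0, 83.6 and 86.9 CPM in WT and at 105, 96.2, 98.8 and 115 CPM in A178D, with a log2 fold change of 0.27 ± 0.08 (adjusted p = 0.0848, edgeR; called with the length and GC offsets, 0.0413). Psmg3, an assembly chaperone, had the highest value of 0.29 ± 0.12 (adjusted p = 0.254). Psmb6, the most abundant per kilobase, had 0.11 ± 0.08 (adjusted p = 0.511), while Psmb2 (0.02 ± 0.08, adjusted p = 0.932) and Psmg1 (0.03 ± 0.10, adjusted p = 0.913) had the lowest values. With offsets for transcript length and GC content 37 of 40 were above 0, with a median of 0.08; Psmb6, Psmb2 and Psmg1 were below it, at -0.005, -0.11 and -0.08. Without WT replicate 1 the count above 0 was 37, and without A178D replicate 4 it was 36.

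The mean deviation of the 40 proteasome genes from their average over the 7 hearts was lowest in WT replicate 1 (-0.16 on the log2 scale) and highest in A178D replicate 4 (0.14). It was -0.08 and -0.002 in WT replicates 3 and 4, and 0.09, -0.007 and 0.03 in A178D replicates 1 to 3. WT replicate 4 thus overlapped with A178D replicate 2.

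The list of Nrf2 control holds its ubiquitin ligases, partners and competitors. Of 15 genes 14 were tested. EdgeR called 0 higher and 0 lower. It gave 1 higher and 3 lower at an unadjusted p under 0.05 (7.93 and 8.81% of all tested genes). DESeq2 called 1 lower, Bach1 (5.06% of all genes with an adjusted p, both directions together). The median log2 fold change was -0.04, with 6 of 14 above 0. With the offsets it was 0.007, with 9 of 14 above 0. Bach1, which competes with Nrf2 for its sites and represses Hmox1, was measured at 51.6, 50.8 and 58.3 CPM in WT and at 42.5, 44.3, 42.7 and 31.3 CPM in A178D. All A178D hearts were lower than all WT hearts, with A178D replicate 4 far below the rest. Bach1 had a log2 fold change of -0.41 ± 0.11 (adjusted p = 0.0678, edgeR), which was -0.31 without A178D replicate 4, where the adjusted p was 0.0426. EdgeR also called it without a filter (0.0378) and with the offsets (0.0344), and the adjusted p ranged from 0.013 to 0.251 over all settings. The acetyltransferase Ep300 was lower in all A178D hearts (-0.30 ± 0.10, adjusted p = 0.145), Dpp3, which binds Keap1, was higher in all of them (0.17 ± 0.08, adjusted p = 0.293), and the autophagy receptor Sqstm1, the most abundant gene of the list per kilobase, had 0.14 ± 0.07 (adjusted p = 0.351). Nfe2l3, the third relative of the factors, did not pass the filter on low counts.

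Peroxiredoxins reduce peroxides at the expense of thioredoxin. In the thioredoxin and peroxiredoxin list 11 of 11 genes were tested and 10 had log2 fold changes above 0, or 7 with the offsets and 8 without WT replicate 1. The median was 0.13, which was 0.04 without WT replicate 1 and 0.20 without WT replicate 4. Prdx6 rose in edgeR, and 0 genes were called lower by edgeR, DESeq2 or limma-voom. EdgeR gave 2 higher and 0 lower at an unadjusted p under 0.05 (7.93 and 8.81% of all tested genes). Prdx6 was measured at 249, 251 and 260 CPM in WT and at 314, 285, 307 and 317 CPM in A178D, every A178D heart being above every WT heart. Its log2 fold change was 0.27 ± 0.07 (adjusted p = 0.0475, edgeR). Prdx6b, a close copy of Prdx6 elsewhere in the genome, makes its counts uncertain where reads could be split. The call was lost with the replicate block. It was also lost when any 1 library other than A178D replicate 4 was left out. The adjusted p was then between 0.0553 (without A178D replicate 2) and 0.192 (without WT replicate 3). Leaving out WT replicate 1 gave 0.0903, WT replicate 4 gave 0.11, A178D replicate 1 gave 0.153 and A178D replicate 3 gave 0.108. The mitochondrial Prdx5 had 0.19 ± 0.09 (adjusted p = 0.297; 0.10 without A178D replicate 4), and Prdx3, the most abundant per kilobase in WT, 0.06 ± 0.07 (adjusted p = 0.748), a sign that turned with the offsets (-0.02). Txnrd2 (-0.05 ± 0.07) and Txnrd3 (0.02 ± 0.08), the relatives of Txnrd1, overlapped between the genotypes (adjusted p = 0.794 and 0.95), and the sign of Txnrd3 turned with the offsets (-0.01).

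In the detoxification and export list, which holds glutathione transferases, reductases and exporters, 22 of 24 genes were tested and 14 lay above 0, or 11 with the offsets or without WT replicate 1 (median 0.05, and -0.009 with the offsets). Gsto1, an omega-class glutathione transferase, was measured at 165, 158 and 159 CPM in WT and at 199, 192, 197 and 218 CPM in A178D. All A178D hearts were above all WT hearts, and Gsto1 rose by a log2 fold change of 0.33 ± 0.07 (adjusted p = 0.0231, edgeR). Gsto1 lost its call with the replicate block. It was also not called when WT replicate 3 (adjusted p = 0.131), WT replicate 4 (0.098), A178D replicate 1 (0.0733) or A178D replicate 3 (0.0548) was left out. EdgeR called no other gene of the list. It gave 3 higher and 1 lower at an unadjusted p under 0.05 (7.93 and 8.81% of all tested genes). DESeq2 also called Gsta4 and Mgst1 higher and Gsta3 lower (5.06% of all genes with an adjusted p, both directions together). Without a filter on low counts edgeR called Gsta4 higher (adjusted p = 0.0394) and Gsta3 lower (0.0462), with the replicate block Gsta4 (0.0464) and Mgst1 (0.0254) higher, and with the offsets Gstm2 lower (-0.22, adjusted p = 0.0322). Gsta4 (0.33 ± 0.08, adjusted p = 0.0603) was higher in all A178D hearts. Mgst1 had 0.51 ± 0.15 (adjusted p = 0.109), and it was called without A178D replicate 2 (0.62, adjusted p = 0.0471). It was 0.34 without WT replicate 1 (adjusted p = 0.234) and 0.41 without A178D replicate 1 (adjusted p = 0.273). Gsta3 had -0.68 ± 0.20 (adjusted p = 0.0958) and was low in WT replicate 1 as well, at 8.79 CPM against 16.0 and 16.6 CPM in the other WT hearts and 6.55 to 10.1 CPM in A178D; without WT replicate 1 it was called (-0.92, adjusted p = 0.00399). Osgin1 had -0.45 ± 0.23 (adjusted p = 0.351; -0.18 without WT replicate 4 and -0.68 without WT replicate 1), and Mgst3, the most abundant per kilobase, 0.12 ± 0.11 (adjusted p = 0.625). Mgst3 ranged from 0.05 (without WT replicate 1) to 0.21 (without WT replicate 4) when a library was left out, and was 0.008 with the offsets (adjusted p = 0.972). Glutathione transferases have close paralogs, and their counts are uncertain where reads could be split between copies.

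Genes for glutathione supply and peroxidases numbered 13, of which 12 were tested, with a median log2 fold change of 0.07. Over all alternatives this median ranged from 0.021 to 0.163. Of the 12 genes 8 lay above 0, or 6 with the offsets or without WT replicate 1. EdgeR called 0 in either direction, and DESeq2 called none. In edgeR 5 were higher and 1 lower at an unadjusted p under 0.05 (7.93 and 8.81% of all tested genes). The glutathione reductase gene Gsr (0.23 ± 0.09, adjusted p = 0.2) and Gpx4, the peroxidase of membrane lipids and the most abundant gene here per kilobase (0.23 ± 0.08, adjusted p = 0.184), were higher in all A178D hearts. With the offsets Gpx4 was 0.12 (adjusted p = 0.355). Glrx had 0.28 ± 0.10 (adjusted p = 0.179), Glrx2 -0.11 ± 0.09 (adjusted p = 0.55) and Ggt5 -0.25 ± 0.11 (adjusted p = 0.263). Slc7a11, the cystine carrier and a widely used Nrf2 target, did not pass the filter on low counts.

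All 5 genes for superoxide dismutases, their copper chaperone and catalase were tested, with a median of 0.15, and edgeR called 0 in either direction. It gave 2 higher and 0 lower at an unadjusted p under 0.05 (7.93 and 8.81% of all tested genes). Catalase (Cat) was measured at 316, 273 and 327 CPM in WT and at 394, 366, 375 and 343 CPM in A178D. All A178D hearts were higher, with a log2 fold change of 0.28 ± 0.08 (adjusted p = 0.0885, edgeR); DESeq2 called it (0.0228), and so did edgeR without A178D replicate 4 (0.0452). Sod1, the most abundant per kilobase, had 0.15 ± 0.09 (adjusted p = 0.434; 0.07 without A178D replicate 4), Sod2 0.05 ± 0.06 (0.758), Sod3 0.22 ± 0.09 (0.245) and Ccs -0.02 ± 0.11 (0.947), each adjusted in edgeR.

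Of the 8 genes for NADPH supply, all tested, edgeR called 0, and the median was 0.02. In edgeR 0 were higher and 1 lower at an unadjusted p under 0.05 (7.93 and 8.81% of all tested genes). The one at an unadjusted p under 0.05 was Nnt, the mitochondrial transhydrogenase, at 1689, 1672 and 1790 CPM in WT and 1449, 1558, 1455 and 1403 CPM in A178D. All A178D hearts were lower, with a log2 fold change of -0.23 ± 0.06 (adjusted p = 0.0826, edgeR). DESeq2 called it (0.0179), and so did edgeR with the offsets (0.0257). C57BL/6J and C57BL/6N differ at Nnt by a known deletion, and the alleles these mice carry are not given in the sources used here. Pgd (0.16 ± 0.08, adjusted p = 0.335), Me1 (0.16 ± 0.09, 0.38), Tkt (-0.03 ± 0.08, 0.876) and Idh2, the most abundant at 1610 CPM per kilobase in both genotypes (adjusted p = 0.997), did not pass.

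All 9 haem and iron genes were tested, with a median of 0.10, and neither edgeR nor DESeq2 called any. In edgeR 1 was higher and 0 lower at an unadjusted p under 0.05 (7.93 and 8.81% of all tested genes). The ferritin genes Fth1 (-0.02 ± 0.08, adjusted p = 0.935) and Ftl1 (0.006 ± 0.08, adjusted p = 0.983), which are induced by Nrf2, overlapped between the genotypes, and the sign of Ftl1 turned with the offsets (-0.11). Ferritin genes have many processed copies in the genome, and their counts are uncertain for that reason. The iron exporter Slc40a1 had 0.27 ± 0.11 (adjusted p = 0.24) and the transferrin receptor Tfrc 0.34 ± 0.16 (adjusted p = 0.308), without a call. Slc40a1 was 0.13 without WT replicate 3 and 0.40 without WT replicate 4, and Tfrc was 0.15 without WT replicate 4 and 0.54 without WT replicate 1.

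**Figure D2:**
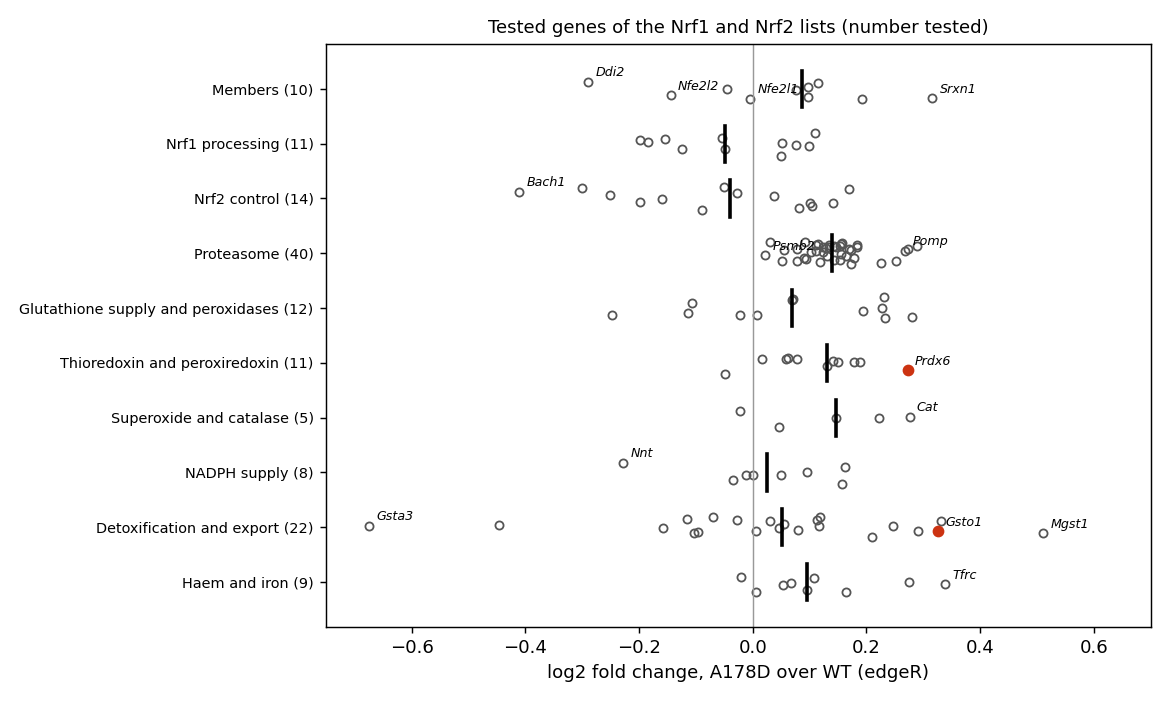
Log2 fold change of A178D over WT (edgeR, linear axis) for each tested gene of the 10 Nrf1 and Nrf2 genes (top line) and of the 9 lists by role, with the number of tested genes in brackets. Each point is a gene, filled red where the adjusted p is under 0.05, and black bars give the median of each list. The 40 proteasome genes lie above 0 with a median of 0.14, and Prdx6 (0.27) and Gsto1 (0.33) are the called genes.

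Trends with transcript length in single libraries and markers of other cell types are given beside these values. In A178D replicate 4 the 3474 genes with the longest transcripts (4866 bases or more) had a median deviation of -0.171 on the log2 scale and the 3474 with the shortest (up to 2263 bases) one of 0.152, while WT replicate 1 had 0.092 and -0.095. These are also the libraries with the highest and the lowest proteasome values. Ddi2, whose transcript is 9553 bases long, and Bach1 were low in A178D replicate 4, and the part of transcript length in single genes was not tested beyond the values given with the offsets. Without A178D replicate 4 the 10 genes still had no call in edgeR. Of the 10 smooth muscle and pericyte markers, edgeR called 5 lower in A178D (1.31% of all tested genes were called lower). The 10 markers summed to 1440, 1452 and 1416 CPM in WT and to 1103, 1206, 1279 and 1019 CPM in A178D. Acta2 was the most abundant of them per kilobase, and none was at 0 in all hearts. The number of these markers called lower was 2 without WT replicate 3 and 3 without WT replicate 1, WT replicate 4, A178D replicate 1 or A178D replicate 2. It was 4 with the replicate block or without A178D replicate 3, and 6 without A178D replicate 4. The calls without WT replicate 4 included Pdgfrb (adjusted p = 0.0493, edgeR), and those without A178D replicate 4 included Rgs5 (0.0495). Neither was called in the main fit. The 14 macrophage markers had a median log2 fold change of 0.16 and 11 above 0, with 0 called by edgeR and by limma-voom and 1 called higher by DESeq2. In edgeR 3 were higher and 2 lower at an unadjusted p under 0.05 (7.93 and 8.81% of all tested genes). The DESeq2 call was C1qb, which edgeR also called higher without a filter on low counts (adjusted p = 0.0462) and with the replicate block (0.0485). Without WT replicate 1, edgeR called 2 macrophage markers lower, Cd163 (-0.49, adjusted p = 0.0409) and Lyve1 (-0.58, adjusted p = 0.0123). The part of these markers in the values above was not tested. The medians of the other marker lists were -0.02 (cardiomyocytes), 0.03 (endothelium), 0.02 (fibroblasts), 0.13 (erythrocytes, with 2 entries of Hbb-bs) and -0.16 (skeletal muscle, 4 genes tested), and the 1 atrial marker tested had 0.65. Single markers moved in both directions. Mybpc3 was the 1 cardiomyocyte marker called by edgeR (0.30 ± 0.06, adjusted p = 0.023). This call was lost with the replicate block (0.0574) and without WT replicate 3 (0.111), WT replicate 4 (0.12), A178D replicate 1 (0.0872) or A178D replicate 3 (0.051). Myh6 (-0.11) and Atp2a2 (-0.16) were lower in all A178D hearts without a call. Of the 8 fibroblast markers, Col1a1 (0.45, adjusted p = 0.0813), Col1a2 (0.26) and Lum (0.19) were higher in all A178D hearts and Fn1 (-0.27) was lower in all of them, without a call in edgeR in the main fit. Col1a1 was called by DESeq2 (0.012) and by edgeR without a filter (0.0416), without WT replicate 1 (0.0196) and with the offsets (0.0199), and Col1a2 with the offsets (0.0389). Without WT replicate 4 they were 0.27 (Col1a1) and 0.14 (Col1a2). The erythrocyte marker Slc4a1 was also lower in all A178D hearts (-1.31, adjusted p = 0.231).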

How the data were processed

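RNA from 7 left ventricles was made into stranded poly(A) libraries and read from both ends. The authors deposited raw counts per gene; their processing notes name bcl2fastq 2.18.0.12, HISAT2 2.1.0, SAMtools 1.6, DESeq2 1.26.0 and GRCm38, while the counting program and annotation are not given in the sources used here, which may not be all there are. Their scaled table was not used. Among counts from 1 to 20, 17.6 to 20.3% were odd. How the 2 reads of a pair were counted is not given there, and a printed count may stand for fewer sequenced fragments, by up to 2 times.

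Identifiers were matched to GENCODE M21 (268 of 21257 entries had no name). The 442 entries in 219 sets with equal counts in every library (at least 30 in all) were reduced to 1 each, and repeats of an identifier with its counts were removed, which left 20927. Tested genes held 99.986% of counts.

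A178D was compared with WT in edgeR 4.0.16 (R 4.3.3): TMM, glmQLFit and glmQLFTest, a minimum of 10 counts in 3 libraries, Benjamini-Hochberg adjusted p under 0.05. Levels per kilobase are CPM over the merged exon length. Alternatives were DESeq2 1.42.0, its size factors in edgeR, limma-voom (limma 3.58.1), no filter, at least 10 counts in every library, a replicate block, each library left out, the table as deposited, and offsets for transcript length and GC content (mgcv 1.9.3, basis size 6). In simulated counts of 13894 genes, 200 of which differed by a log2 fold change of 1, edgeR found 92.5% with 4.64% false calls, and DESeq2 94% with 13% false calls. The 10 genes lay between -0.29 and 0.32, and detection of differences of that size was not simulated. The simulated counts also held no trend with transcript length.

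The members and lists were chosen with earlier results of these data known. Genes were named by a rule: the 10 genes, Ttn, Tcap, Acta1 and Nppa, and in each list by role the called genes, the 2 highest and 2 lowest log2 fold changes among genes averaging 50 counts or more, and the highest level per kilobase in WT; for each factor, the 5 most similar profiles. Psmd6, Gstm2, the cell type markers, the overlapping genes and the genes that did not pass the filter are named outside this rule, chosen after their values were seen. Of the rule, Tcap had a log2 fold change of 0.13 (adjusted p = 0.46), 0.02 with the offsets and 0.07 without A178D replicate 4.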

Additional observations from a re-analysis of the deposited data

Results flagged for a closer look

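Among 57 sets of 4 A178D values examined, 7 held a heart far from the other 3, where chance gives about 1 in 20. In 6 of the 7 that heart was A178D replicate 4, a library whose values also moved with transcript length, as did those of WT replicate 1. Bach1 was lowest there (31.3 CPM, against 42.5 to 44.3 in the other A178D hearts). The following genes were highest there: Prdx5 (481 CPM, against 381 to 393), Psmb2 (107 CPM, against 87.8 to 90.0), Psmb6 (165 CPM, against 143 to 146), Psmg1 (20.7 CPM, against 17.5 to 18.0) and Sod1 (324 CPM, against 264 to 272). Syvn1 was highest in A178D replicate 2 (32.0 CPM, against 29.2 to 29.5). None of the 10 Nrf1 and Nrf2 genes was among them.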

How the results depend on the processing

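For the 10 genes the call changed with 2 alternatives: DESeq2 and the length and GC offsets each called 1 gene, Srxn1 (log2 fold change 0.32 and 0.29), and no fit that left out a library called any (0 in each). The cause was not tested. The labels do not say whether equal replicate numbers pair the hearts. Correlations of deviations were 0, -0.04 and -0.04 for equal numbers. Deviations were centred within each genotype, which holds these correlations near 0 on average, so they cannot decide it. With the replicate block no gene of the 10 was called in edgeR (Srxn1 0.345, adjusted p = 0.115, and Ddi2 -0.451, 0.23). No heart correlated best with the heart of its own number. With the block 124 genes were called higher and 147 lower. Gsto1 (adjusted p = 0.0562) and Prdx6 (0.0882) missed the threshold, and Gsta4 (0.0464) and Mgst1 (0.0254) passed it.

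Over all tested genes, calls higher in A178D (145) numbered 290 in DESeq2, 229 with the offsets and 22 to 215 with a library left out; calls lower (182) numbered 375, 288 and 31 to 238. In the lists by role, calls higher (2) numbered 7 in DESeq2 and 0 to 3 with a library left out, and calls lower (0) numbered 3 in DESeq2, 2 without a filter, 3 with the offsets (Bach1, Nnt and Gstm2) and 0 to 1 with a library left out. 

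Signs turned for some uncalled values. With the offsets these were Nfe2l1 0.023, Txnrd3 -0.012, Prdx3 -0.018, Psmb6 -0.005, Psmb2 -0.109, Psmg1 -0.082, Idh2 -0.069 and Ftl1 -0.113; with the replicate block Gclc 0.002, Fth1 0.005, Ccs 0.008 and Idh2 -0.00036; Idh2 also with limma-voom (-0.00025) and without a filter (-0.003). With a library left out the ranges were -0.05 to 0.06 (Nfe2l1), -0.049 to 0.159 (Hmox1), -0.087 to 0.006 (Gclc), -0.002 to 0.188 (Gclm), -0.014 to 0.044 (Txnrd3), -0.027 to 0.09 (Psmg1), -0.048 to 0.079 (Psmb2), -0.076 to 0.008 (Tkt), -0.04 to 0.034 (Idh2), -0.087 to 0.038 (Fth1), -0.05 to 0.062 (Ftl1) and -0.131 to 0.065 (Ccs). Uncalled values that kept their sign but moved by over 1.5 times with a library left out ranged over -0.355 to -0.148 (Ttn), 0.067 to 0.18 (Tcap), 0.103 to 0.225 (Prdx5), 0.009 to 0.123 (Prdx3), 0.054 to 0.163 (Psmb6), 0.074 to 0.231 (Sod1), 0.016 to 0.077 (Sod2), 0.023 to 0.169 (Ngly1), -0.26 to -0.124 (Ogt), 0.058 to 0.237 (Me1), 0.18 to 0.367 (Glrx), -0.161 to -0.047 (Glrx2) and -0.07 to -0.017 (Txnrd2). With the offsets Gclm was 0.168, Mgst3 0.008, Gsta4 0.212, Sod2 0.124, Prdx5 0.117, Txnrd2 -0.074, Fth1 -0.08 and Ccs -0.128. List medians were, with the offsets, -0.005 (Nrf1 processing) and 0.007 (Nrf2 control), and with a library left out -0.072 to 0.012 (Nrf1 processing), -0.059 to 0.007 (Nrf2 control), 0.027 to 0.163 (glutathione), 0.037 to 0.2 (thioredoxin and peroxiredoxin), 0.015 to 0.088 (detoxification and export), 0.048 to 0.139 (haem and iron), 0.106 to 0.176 (proteasome), 0.074 to 0.178 (superoxide and catalase) and -0.033 to 0.106 (NADPH supply). The number of hearts limits the precision of all values, and depth adds to it for genes of few counts such as Ddi2 (147 counts in A178D replicate 4).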
